A study of Mus musculus with 10 samples.

Results

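Across 3 stretches of mouse autosomes, intervals enriched for H3K4me3 or H3K27me3 lay close together and many held unusually many control reads. The stretches were chromosome 14 from 1 to 9000000, chromosome 4 from 145000000 to 148000000, and chromosome 13 from 12800000 to 13100000, in build mm9. Every interval (island) of the 4 deposited lists lying wholly inside one of them was taken, which gave 1543 of 84243 islands. Of these, 839 lay in the chromosome 14 segment, 648 in the chromosome 4 segment and 56 in the chromosome 13 segment. The segments were chosen by measured values of these same lists, namely how crowded their islands were and how many control reads they held, so island numbers and control levels are described here and carry no test.

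The islands came from mouse embryonic stem cells of strain 129/C57BL/6 kept on embryonic fibroblast feeders. Cells called WT received ethanol and cells called KO, with a knockout of BAF250a, received 1 µM 4-hydroxytamoxifen, in both cases for 36 hours starting 4 hours after passage. Genotype and drug therefore coincide, and the clone behind each library is not stated. There was 1 H3K4me3, 1 H3K27me3 and 1 input library per genotype, with chromatin fixed in 1% formaldehyde, cut with micrococcal nuclease and briefly sonicated. Each comparison therefore compares single libraries. Intervals given below are 95% intervals. Those of densities and ratios cover the counting error of reads, and PCR copies of 1 molecule would make them too narrow. Those of shares treat the islands of 1 library as independent, which neighbouring islands need not be. Neither kind gives the spread between libraries. The KO H3K27me3 library is titled H2K27me3 in its label, while its antibody entry reads H3K27me3.

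H3K4me3 marks active and poised promoters, and H3K27me3 is deposited by Polycomb repressive complex 2 at silent developmental genes. BAF250a, encoded by Arid1a, is a subunit of the BAF chromatin remodelling complex. An input library holds fragmented chromatin taken without an antibody, and its read density follows copy number and how well short reads can be placed. Where near-identical copies of a sequence are present, reads from all copies can pile up on those the reference holds, or be dropped, according to the alignment settings. No source used here states those settings.

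The order of genes in the RefSeq table of another build, GRCm38.p6, gives the kind of sequence known from these parts of chromosomes 4 and 13. No coordinates were converted, so no gene was assigned to an island. On chromosome 4 that table lists 82 gene models between Tnfrsf8 and Miip, 56 of them pseudogenes and 18 with zinc finger names such as Zfp600 and Rex2. Zinc finger genes of the KRAB class, for which distal chromosome 4 is known, encode repressors of transposable elements. On chromosome 13 there are 22 models between Gpr137b-ps and Gpr137b, among them Prl2c2, Prl2c3 and Prl2c5, which encode proliferins, placental hormones of the prolactin family.

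Crowding held for H3K27me3 on chromosomes 14 and 4 and for H3K4me3 on chromosome 4, but not for H3K4me3 on chromosome 14. Over 2410 autosomal windows of 1 Mb that held any island, the median window held 2 H3K27me3 islands in either genotype, 8 H3K4me3 islands in WT and 11 in KO. The 6 windows with islands on chromosome 14 held 22 to 61 H3K27me3 islands in WT and 38 to 78 in KO. In the same windows there were 10 to 19 H3K4me3 islands in WT and 10 to 28 in KO. The 3 windows of chromosome 4 held 48 to 94 H3K4me3 islands in WT and 42 to 60 in KO, and 17 to 76 and 9 to 44 H3K27me3 islands. By number of islands, chromosome 4 windows ranked first among all windows for both marks in WT. A chromosome 14 window ranked first for H3K27me3 in KO. The chromosome 13 segment, 0.3 Mb long, is shorter than a window and was not ranked. In WT it held 83.3 H3K4me3 and 80.0 H3K27me3 islands per Mb, against 78.3 and 53 in the chromosome 4 segment. In KO it held 0 and 23.3, against 53.3 and 31.3.

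Rich input, the other property in the segments' name, was not shared by all lists. In H3K4me3 islands of WT, control reads per kb of island were 20.1 (19.6 to 20.7) on chromosome 14, 11.4 (11.2 to 11.7) on chromosome 4 and 4.95 (4.29 to 5.69) on chromosome 13. Other autosomal islands of that list held 12.8, so the chromosome 4 and 13 segments lay below them. In H3K4me3 islands of KO the values were 17.6 on chromosome 14 and 18.8 on chromosome 4, both above the 12.1 of other autosomal islands. In H3K27me3 islands of WT they were 9.33, 9.55 and 6.33 on chromosomes 14, 4 and 13, against 8.15 elsewhere. In KO they were 14.2, 17.9 and 16.0, against 10.4 elsewhere. Input was thus above the autosomal level in all 5 KO values and in 3 of 6 WT values. The sequencing depth of the KO input relative to the WT input is unknown, so the other autosomal islands stand beside each value as a reference.

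**Figure D1:**
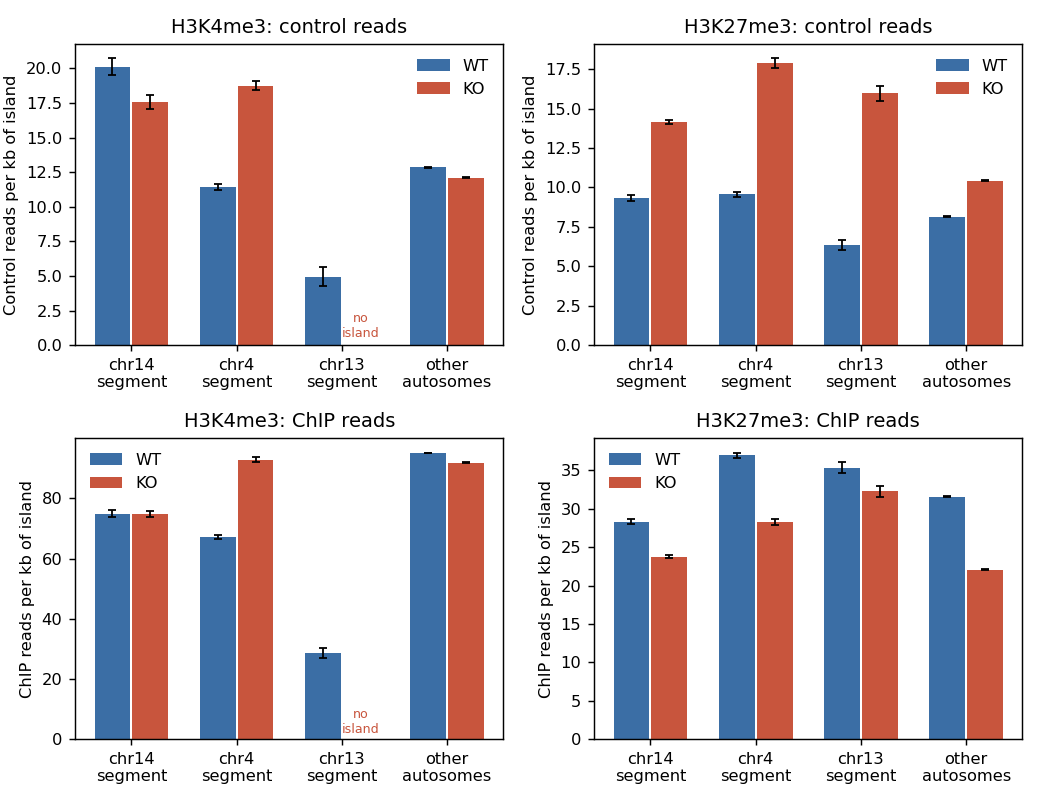
Control reads (top) and ChIP reads (bottom) per kb of island for H3K4me3 (left) and H3K27me3 (right), pooled over the islands of each segment and of the other autosomes, in WT (blue) and KO (red). Error bars are 95% Poisson intervals for counting error, each bar is 1 library, and the KO H3K4me3 list has no island in the chromosome 13 segment; control reads on chromosome 4 are 11.4 in WT and 18.8 in KO for H3K4me3, and 9.55 and 17.9 for H3K27me3.

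On chromosome 14 the H3K27me3 list was longer in KO. In WT 265 H3K27me3 islands covered 1030.4 kb, 11.4% of the segment, and in KO 405 islands covered 2850.8 kb, 31.7%. Median island width was 3.0 kb in WT and 5.0 kb in KO, and islands of 10 kb or wider numbered 13 and 71. ChIP reads per kb were 28.3 (28.0 to 28.6) in WT and 23.8 (23.6 to 24.0) in KO, and 31.5 and 22.0 in the other autosomal islands. Of all H3K27me3 island reads, WT had 2.56% in this stretch and KO 8.07%.

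H3K27me3 islands on chromosome 14 were weakly enriched in both genotypes. The fold over input, which is ChIP over control reads divided by the depth constant of each list, was 1.81 in WT and 1.63 in KO when pooled over islands. Other autosomal H3K27me3 islands reached 2.31 and 2.06. Islands under 2-fold made up 149 of 265 in WT (56.2%) and 320 of 405 in KO (79.0%), against 29.8% and 36.1% elsewhere on the autosomes. At a stricter FDR of 1e-05 the segment kept 167 islands in WT and 260 in KO.

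The KO-only H3K27me3 islands of chromosome 14 numbered 225 and covered 1093.8 kb. That was 55.6% of the KO islands there (50.6 to 60.5%), against 41.5% of all KO H3K27me3 islands. Their median fold was 1.67, beside 1.65 in the KO islands with a WT partner. Their control density was 12.1 reads per kb, beside 15.5. The KO-only region with most reads, at chromosome 14, 4201201 to 4217600, held 523 ChIP and 388 control reads over 16.4 kb, a fold of 1.31. In the other direction, 17 of 265 WT islands lacked a KO island (6.42%, 3.78 to 10.1%), against 50.4% of all WT H3K27me3 islands. If 50% of the smaller island had to be covered, that share was 10.9%, and at an FDR of 1e-05 it was 17.4%. The WT-only region with most reads, at 7468201 to 7471600, held 94 ChIP and 45 control reads.

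The widest H3K27me3 region of chromosome 14 spanned 64.6 kb, from 7794201 to 7858800. In WT 8 islands covered 42 kb of it with 1237 ChIP and 494 control reads, and in KO 2 islands covered 63.8 kb with 1812 and 1219. Per kb the ChIP reads were 29.5 and 28.4 and the control reads 11.8 and 19.1. The KO over WT ratio was 0.964 for ChIP and 1.62 for control, against 0.679 and 1.23 in other autosomal shared regions, so both lay above the reference. Fold over input was nearly equal, 1.49 and 1.45. Input was densest in KO at 4170801 to 4194800, with 842 control reads over 24 kb, or 35.1 per kb, and in WT at 6029801 to 6039600, with 20.5 per kb.

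Most H3K4me3 islands on chromosome 14 had a partner in the other genotype, 68 of 79 in WT and 67 of 90 in KO. On the other autosomes 25541 of 26866 and 23177 of 39257 did, so sharing was less frequent here in WT and more frequent in KO. Median gaps between the H3K4me3 islands of the segment were 66.4 kb in WT and 45.6 kb in KO, wider than the 28 and 17.4 kb elsewhere on the autosomes. By number per window they were not sparse, with 10 to 19 in WT and 10 to 28 in KO against medians of 8 and 11. The 79 WT islands covered 225.4 kb and the 90 KO islands 252.6 kb. ChIP density was 74.9 reads per kb in WT (73.8 to 76.0) and 74.8 in KO (73.7 to 75.9), the same within counting error. Islands with 100 or more ChIP reads, a limit chosen after the values were seen, numbered 58 in WT and 60 in KO, and each of them overlapped an island of the other genotype. Their median width was 3.4 kb in both lists, from 1.6 to 8.8 kb in WT and from 1.2 to 11.4 kb in KO. From the start of one to the start of the next the median distance was 81.0 kb in WT, with quartiles of 70.4 and 145.4 kb, and 81.4 kb in KO, with quartiles of 70.0 and 136.9 kb. Since all of them are shared, the spacing in one list follows from the other. These islands held a median of 256 ChIP reads at 2.00-fold in WT and 261 reads at 3.15-fold in KO. Over all H3K4me3 islands of the segment the pooled fold was 2.09 (WT) and 3.16 (KO), under the 4.16 and 5.64 elsewhere on the autosomes. Under 2-fold were 42 of 79 in WT (53.2%) and 11 of 90 in KO (12.2%), against 25.8% and 16.8% elsewhere.

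Fainter H3K4me3 islands of chromosome 14 were shared less often. On the other autosomes too, islands with a partner held more reads, with medians of 155 against 35 in WT and 269 against 47 in KO. The share of other autosomal islands with a partner at 100 or more reads was not computed. Under 100 reads, a partner was found for 10 of 21 WT islands and 7 of 30 KO islands. In all, 11 of 79 WT islands (13.9%, 7.16 to 23.5%) and 23 of 90 KO islands (25.6%, 16.9 to 35.8%) were found in 1 genotype, against 5.34% and 40.4% of all H3K4me3 islands of these lists. At an FDR of 1e-05 the WT share was 3.17%. The WT-only island with most reads, at 3125801 to 3128600, had 92 ChIP and 34 control reads, and the KO-only one, at 8784801 to 8787600, had 96 and 51. The densest input of any H3K4me3 island in the 3 segments was in both genotypes at the same place. WT had 151 control and 460 ChIP reads at 4211601 to 4215000 (44.4 control reads per kb), and KO had 125 and 396 at 4212401 to 4215000 (48.1 per kb).

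**Figure D2:**
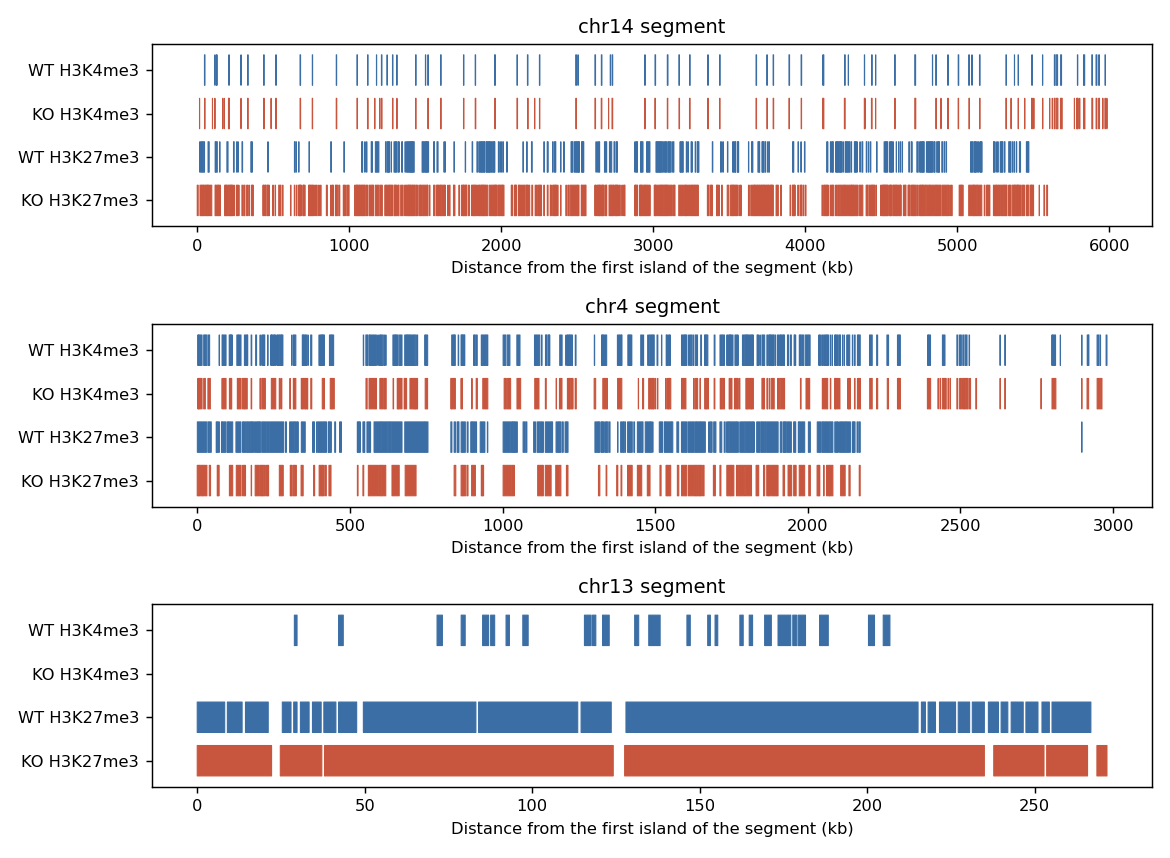
Islands of the 4 lists along the 3 segments, as bars at their distance in kb from the first island of the segment, in WT (blue) and KO (red), with a thin outline so that narrow islands stay visible. On chromosome 14 H3K27me3 covers 11.4% of the segment in WT and 31.7% in KO, on chromosome 4 40.3% and 26.0%, and on chromosome 13 79.3% and 86.1%, where no KO H3K4me3 island is listed.

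On chromosome 4 both marks had fewer islands in KO. Over the whole lists H3K27me3 islands were also fewer in KO (8067 in WT and 6833 in KO), while H3K4me3 islands were more numerous (28365 and 40978). The segment's share of the list was 0.828% in WT and 0.390% in KO for H3K4me3, and 1.97% and 1.38% for H3K27me3. The 235 H3K4me3 islands of WT covered 830 kb and the 160 of KO covered 735.8 kb. The 159 H3K27me3 islands of WT covered 1209 kb and the 94 of KO covered 781.4 kb. The density of ChIP reads moved differently in the 2 marks. For H3K4me3 it was 67.1 per kb in WT (66.6 to 67.7) and 92.8 in KO (92.1 to 93.5), while other autosomal islands held 95.1 and 91.8. For H3K27me3 it was 36.9 (36.6 to 37.3) and 28.3 (27.9 to 28.6), while other autosomal islands held 31.5 and 22.0. The H3K4me3 density of this segment was thus well under the autosomal level in WT and near it in KO.

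For H3K4me3 on chromosome 4 the pooled fold over input was 3.30 (WT) and 3.68 (KO), and KO over WT was 1.11 (1.08 to 1.15). The median H3K4me3 island gave 3.18 and 3.13, the opposite order. Elsewhere on the autosomes the pooled fold was 4.16 and 5.64. For H3K27me3 the pooled fold was 2.31 in WT and 1.54 in KO, against 2.31 and 2.06 elsewhere on the autosomes. Under 2-fold were 72 of 94 KO islands (76.6%), against 36.1% elsewhere. In WT they were 49 of 159 (30.8%), near the 29.8% elsewhere.

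The chromosome 4 H3K4me3 islands without a KO partner were narrower and held fewer reads than the rest, as they were on the other autosomes (medians of 35 reads without and 155 with a partner). Of the WT H3K4me3 islands, 77 of 235 had no KO partner (32.8%, 26.8 to 39.2%), against 5.34% of all WT H3K4me3 islands. They had a median of 45 ChIP reads and 6.77 control reads per kb, while the 158 with a partner had 165.5 ChIP reads and 12.4 control reads per kb. Median width was 1.6 and 3.2 kb, and median fold 3.09 and 3.20. Of the KO H3K4me3 islands, 26 of 160 had no WT partner (16.3%, 10.9 to 22.9%), against 40.4% of all KO H3K4me3 islands. For H3K27me3, 72 of 159 WT islands had no KO partner (45.3%, 37.4 to 53.4%), near the 50.4% of all WT islands. None of the 94 KO H3K27me3 islands lacked a WT partner (0%, 0 to 3.85%), against 41.5% of all KO islands.

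Named places on chromosome 4 show the same mix. The widest H3K4me3 region, 145578201 to 145602600, held 2207 ChIP and 344 control reads in WT and 2606 and 495 in KO, with 2 islands in each and folds of 3.61 and 3.91. The widest H3K27me3 region, 145695201 to 145759000, was 1 island of 63.8 kb in WT with 3081 ChIP and 999 control reads, and 1 island of 35.6 kb in KO with 1344 and 973. Its control density was 15.7 and 27.3 per kb and its fold 1.84 and 1.34. At 146790201 to 146808600 a KO H3K27me3 island of 18.4 kb held 816 ChIP and 722 control reads, 39.2 control reads per kb at 1.1-fold. The KO-only H3K4me3 island with most reads, 146790401 to 146793000 (190 ChIP and 100 control reads), and the WT-only one, 146801401 to 146808600 (343 and 136), both lie within that stretch. The WT-only H3K27me3 island with most reads, 147103801 to 147112600, had 382 ChIP and 124 control reads, a fold of 1.84.

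On chromosome 13 H3K27me3 covered most of the segment in both genotypes, and H3K4me3 islands were listed in WT alone. The 24 WT islands covered 237.8 kb and the 7 KO islands 258.4 kb, with 35.3 (34.6 to 36.1) and 32.2 (31.5 to 32.9) ChIP reads per kb. The control density was 6.33 (6.02 to 6.66) in WT and 16.0 (15.5 to 16.5) in KO, so the fold was 3.33 and 1.97. The widest region, 12955401 to 13062800, held 3834 ChIP and 781 control reads in 6 WT islands, and 3730 and 2035 in 1 KO island of 107.4 kb. The next, 12865601 to 12952000, held 2980 and 508 in 5 WT islands and 2974 and 1333 in 1 KO island. Per kb the KO over WT ratio of ChIP reads was 0.928 at the first place and 0.940 at the other, against 0.679 in other autosomal shared regions. That of control reads was 2.48 and 2.47, against 1.23, so both measures lay above the reference and the control further.

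The 25 WT H3K4me3 islands of chromosome 13 covered 40.4 kb with 1155 ChIP and 200 control reads. That is 28.6 (27 to 30.3) ChIP and 4.95 control reads per kb, the lowest densities of both kinds among the WT H3K4me3 values here, at a pooled fold of 3.25. The one with most reads, 13001201 to 13005000, held 101 ChIP and 27 control reads. All 25 lay on H3K27me3 islands of both genotypes. None could have a KO partner, because no KO H3K4me3 island is listed in the segment. The 100% in WT only is therefore not compared. The 3 KO H3K27me3 islands beneath the 25 held 17.1 control reads per kb. No KO H3K4me3 read count is listed there, and whether the mark changed was not tested. On chromosome 4, 57 of the 77 WT-only H3K4me3 islands lay on a KO H3K27me3 island, and on chromosome 14 all 11 did. Among all WT-only H3K4me3 islands the share was 18.3%, and on the other autosomes it was 133 of 1325. Control density of the KO H3K27me3 islands beneath them was 17.7 reads per kb on chromosome 4 and 21.3 on chromosome 14. In WT, 75 of those 77 islands and all 11 also lay on an H3K27me3 island, against 153 of 1325 on the other autosomes. KO H3K27me3 covered 26.0% of the chromosome 4 segment and 31.7% of the chromosome 14 segment. The share among WT H3K4me3 islands with a KO partner was not computed, so these shares show no trait particular to WT-only islands.

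**Figure D3:**
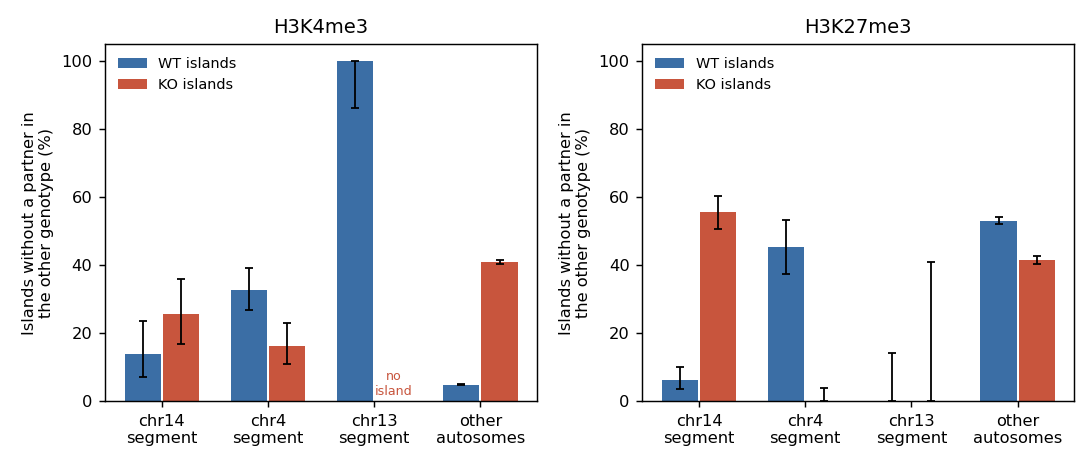
Share of islands with no overlapping island of the same mark in the other genotype, for each segment and the other autosomes, with exact 95% binomial intervals that treat islands as independent. KO H3K27me3 islands lack a partner in 55.6% of cases on chromosome 14 and in 0% on chromosomes 4 and 13, and WT H3K4me3 islands in 13.9%, 32.8% and 100% on chromosomes 14, 4 and 13. The 100% follows from the absence of KO H3K4me3 islands in the chromosome 13 segment, so its interval is not informative.

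Control reads were next compared at regions called in both genotypes, each library over its own island length. Pooled over the chromosome 4 segment, they were higher in KO for both marks. In 120 shared H3K4me3 regions control density was 12.4 per kb (WT) and 18.9 per kb (KO). The ratio was 1.53 (1.49 to 1.57), while other autosomal shared regions gave 0.929 (0.927 to 0.931). In 73 shared H3K27me3 regions it was 9.97 and 17.9, a ratio of 1.79 (1.75 to 1.84), against 1.23 (1.22 to 1.23) elsewhere. Among regions with 20 or more control reads in each library, 77 of 87 for H3K4me3 and 68 of 68 for H3K27me3 were higher in KO, against 33.9% and 70.1% of all shared regions of each mark. The H3K4me3 regions among these that were lower in KO all started at 147240601 or beyond, with ratios from 0.580 to 0.979. In that distal part the regions higher in KO started at 147274601 (1.42), 147313801 (1.87), 147815001 (1.16) and 147930201 (1.18). The pooled 1.53 thus joins a stretch higher in KO with a distal part of mixed direction, and no pooled ratio was computed for either. The single-region ratios ran from 0.580 (147522401 to 147526600) to 2.71 (146155801 to 146161400) for H3K4me3. For H3K27me3 they ran from 1.02 (145336001 to 145340200) to 3.09 (145119001 to 145131600).

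On chromosome 14 the control ratio was under 1 for H3K4me3 and over 1 for H3K27me3, as in the other autosomal shared regions (0.929 and 1.23). In 67 shared H3K4me3 regions control density was 20.8 per kb (WT) and 18 per kb (KO), giving 0.863 (0.827 to 0.900), and 17 of 59 regions with 20 or more control reads were higher in KO, a share near the 33.9% of all such regions. In 161 shared H3K27me3 regions it was 9.40 and 15.5, a ratio of 1.65 (1.61 to 1.69), above the 1.23 of the other autosomes. Of those with 20 or more control reads in each library, 98 of 98 were higher in KO, against 70.1% of all such regions. The single-region ratios ran from 0.513 (4957201 to 4960600) to 1.91 (3208001 to 3211800) for H3K4me3. They ran from 1.06 (7750201 to 7756400) to 3.40 (7204001 to 7211800) for H3K27me3. On chromosome 13 the 5 shared H3K27me3 regions gave 6.33 and 16.0 per kb, a ratio of 2.53 (2.38 to 2.68), with single regions from 2.47 (12865601 to 12952000) to 3.44 (12852601 to 12865000).

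**Figure D4:**
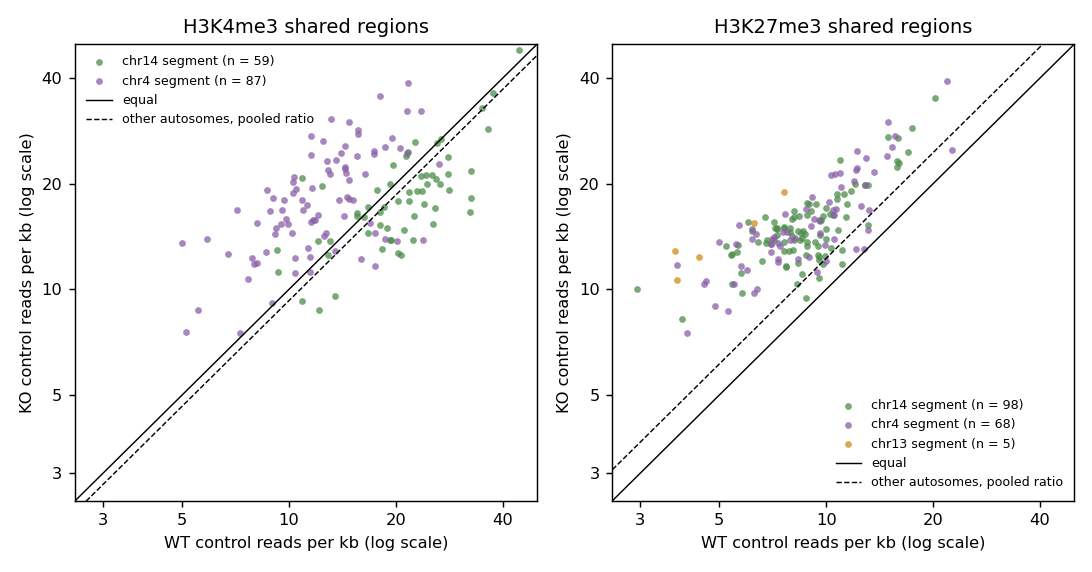
Control reads per kb in KO against WT at regions called in both genotypes with 20 or more control reads in each library, on log axes; each point is 1 region, the solid line is equality and the dashed line the pooled ratio of other autosomal shared regions. All H3K27me3 points lie above the solid line, while for H3K4me3 the chromosome 4 points lie mostly above it (77 of 87) and the chromosome 14 points mostly below (17 of 59 above).

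ChIP density in the same shared regions was compared in the same way, beside the other autosomal shared regions because relative depth is unknown. The KO over WT ratio of ChIP reads per kb was 0.995 (0.974 to 1.02) for H3K4me3 on chromosome 14 and 1.28 (1.27 to 1.30) on chromosome 4, against 1.07 elsewhere on the autosomes. Of regions with 20 or more control reads in each library, 29 of 59 on chromosome 14 and 71 of 87 on chromosome 4 had more H3K4me3 ChIP reads per kb in KO, against 68.5% of all such regions. For H3K27me3 the ratio was 0.909 (0.896 to 0.923) on chromosome 14, 0.724 (0.712 to 0.736) on chromosome 4 and 0.917 (0.889 to 0.945) on chromosome 13, against 0.679 elsewhere. Regions with more H3K27me3 ChIP reads per kb in KO were 40 of 98, 1 of 68 and 0 of 5 on chromosomes 14, 4 and 13, against 7.39% of all such regions. Divided by the ratio of other autosomal shared regions, a reference added after the values were seen, ChIP and control moved alike on chromosome 14, at 0.93 and 0.93 for H3K4me3 and 1.34 and 1.34 for H3K27me3. On chromosome 4 the relative ratio was 1.20 for ChIP and 1.65 for control in H3K4me3 regions, and 1.07 and 1.46 in H3K27me3 regions. On chromosome 13 it was 1.35 for ChIP and 2.06 for control. The KO over WT ratio of fold was 0.592 (0.554 to 0.633) on chromosome 13 and 0.659 (0.639 to 0.680) on chromosome 4 for H3K27me3, against 0.905 elsewhere. On chromosome 14 it was 0.902 (0.877 to 0.927), its interval including the autosomal value. For H3K4me3 the fold ratio on chromosome 14 was 1.53 (1.45 to 1.6), as elsewhere (1.53), and on chromosome 4 it was 1.11 (1.07 to 1.14). From region to region the control and ChIP ratios were weakly related, with Spearman rho of 0.20 over 59 H3K4me3 regions of chromosome 14 and 0.05 over 87 of chromosome 4, beside 0.26 over 15498 on other autosomes. For H3K27me3 rho was 0.06 over 98 and −0.12 over 68 regions of chromosomes 14 and 4, beside 0.35 over 1854 on other autosomes. The points of each set share libraries and islands. Both ratios are also taken over the same island lengths, which can relate them by itself, so rho is a description only.

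Intervals with identical ends in both genotypes remove the effect of island width, but were few. On chromosome 4, 7 such H3K4me3 intervals held 256 control reads (WT) and 414 (KO), giving 1.62 (1.38 to 1.90), while 909 elsewhere on the autosomes gave 0.967. The 2 such H3K27me3 intervals held 140 and 195, a ratio of 1.39 (1.12 to 1.74), and 29 elsewhere gave 1.37, close to the segment's value. On chromosome 14, 4 H3K4me3 intervals gave 0.856 (0.689 to 1.06), and the single H3K27me3 interval gave 1.43 (0.791 to 2.63). Copy number, placement of reads from repeated sequence and the input libraries themselves cannot be told apart from genotype and drug here.

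H3K4me3 islands of these segments overlapped H3K27me3 more often than those of the whole lists did, while H3K27me3 islands overlapped H3K4me3 more often on chromosome 4 alone. On chromosome 4, 198 of 235 WT H3K4me3 islands also carried H3K27me3 (84.3%, 79.0 to 88.7%), against 10.8% of all WT H3K4me3 islands. In KO it was 90 of 160 (56.3%, 48.2 to 64.1%), against 6.78% of all KO islands, and 35.2% at an FDR of 1e-05. On chromosome 13 it was 25 of 25 in WT. H3K27me3 covered 40.3% (WT) and 26.0% (KO) of the chromosome 4 segment and 79.3% (WT) of the chromosome 13 segment. The part of that coverage in these shares was not tested. On chromosome 14 the share was 17 of 79 in WT (21.5%, 13.1 to 32.2%) and 46 of 90 in KO (51.1%, 40.3 to 61.8%). Of those 17 WT islands, 11 had no KO partner. At an FDR of 1e-05 the WT share there was 4.76%, and with 50% of the smaller island required the KO share was 24.4%. Among the chromosome 14 islands with 100 or more H3K4me3 reads, H3K27me3 lay on 6 of 58 WT islands and 44 of 60 KO islands. No share at that limit was computed outside the segment. The overlap on chromosome 14 thus moved with the length of sequence that H3K27me3 covered, 11.4% of the segment in WT and 31.7% in KO, and its part in the result was not tested. Taken from H3K27me3, 102 of 159 WT and 64 of 94 KO islands of chromosome 4 overlapped H3K4me3 (64.2% and 68.1%), against 37.4% and 41.9% of all islands. On chromosome 14, 16 of 265 and 61 of 405 did (6.04% and 15.1%), and on chromosome 13, 6 of 24 in WT, all below those shares. The 7 KO islands of chromosome 13 could overlap none, because no KO H3K4me3 island is listed there, so they are not compared.

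The segment ends are not all natural borders. In the 1000 kb after the chromosome 14 segment there were 3 H3K27me3 islands in WT and 1 in KO, against 28 and 38 in the last 1000 kb inside. After the chromosome 4 segment H3K27me3 was at 2 and 1 islands, from 17 and 9 inside. H3K4me3 went on there with 30 islands in WT and 70 in KO, from 47 and 41 inside, with control densities of 14.3 and 13.4 per kb. After the chromosome 13 segment, H3K27me3 continued over 100 kb with 5 islands in WT and 3 in KO, from 11 and 3 inside. Control density was 2.87 and 7.08 per kb beyond that end, also higher in KO.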

How the data were processed

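The data were 4 lists of enriched intervals, each from 1 ChIP library. Bowtie, SICER 1.1 and mm9 are named in the submitters' processing notes; the deposited lists are labelled with a window of 200 bp, gaps of 200 bp (H3K4me3) and 600 bp (H3K27me3) and an FDR of 0.05. Bowtie's version and settings, and whether duplicates were kept, are not given in the sources here. Each deposited island carries a ChIP read count and a control read count, both unscaled, a deposited p-value with its adjusted value, and a deposited fold ratio. In 100% of islands with control reads the deposited fold equalled, within a relative difference of 1e-06, ChIP over control reads divided by 1 constant per list (1.78 for WT and 1.35 for KO H3K4me3, 1.68 and 1.03 for H3K27me3). Islands identical in both marks of a genotype had equal control counts (11 of 11 in WT, 4 of 4 in KO). Island reads totalled 9565481 and 13512350 for H3K4me3 and 1140878 and 839422 for H3K27me3 in WT and KO; library totals are not given, and reads outside islands are not listed.

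Positions are 1-based mm9. Segments were described with islands wholly inside them. Islands overlapping by 1 bp or more were shared, and overlapping islands of the 2 genotypes were joined, mark by mark, as regions. Reference values are autosomal islands outside the segments, and shares over all islands of a list. Densities have exact Poisson intervals and shares Clopper-Pearson ones. Read ratios have exact conditional binomial intervals, and fold ratios an interval from the normal approximation of their logarithm. With 1 library per group no test between genotypes was run. Named regions are, per segment and mark, the widest, those with extreme control ratios (20 or more control reads each), the 1-genotype regions with most reads, and islands of 1 kb or wider with densest control. Members and lists were chosen with earlier results of these data known. Overlap and ratio calculations were tested on simulated lists. Python 3.11.15, numpy 2.4.6, pandas 2.3.3, scipy 1.17.1 and matplotlib 3.10.9 were used. Alternatives were a 1 bp membership rule, an FDR of 1e-05, 50% overlap, leaving out the item with most control reads, medians, scaling to other autosomes, a read minimum and identical intervals. The nuclease and input profiles, the deleted exons of Arid1a and DNA sequences of the islands were not analysed here, and the gene order around the chromosome 14 segment is not reported here.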

Additional observations from a re-analysis of the deposited data

How the results depend on the processing

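Of 136 alternative values, 106 stayed within the interval or within 1.5 times the count, 29 moved and 1 reversed; except where an FDR of 1e-05 shortens the lists, the cause was not tested. All 38 values with islands counted from 1 bp in a segment, all 15 without the item with most control reads and all 5 with 20 or more control reads stayed. The fold ratio of H3K4me3 on chromosome 4 reversed from 1.11 to 0.983 with medians over islands. Medians also gave fold ratios of 1.59 (chromosome 14, H3K4me3) and 0.484 (chromosome 13, H3K27me3), and control ratios of 1.79 (chromosome 4, H3K4me3), 1.80 (chromosome 4, H3K27me3) and 2.72 (chromosome 13). An FDR of 1e-05 left 167 WT and 260 KO H3K27me3 islands on chromosome 14 and 60 KO ones on chromosome 4. Shares in 1 genotype were then 3.17% (chromosome 14, WT H3K4me3), 42.2% (chromosome 4, WT H3K4me3), 17.4% (chromosome 14, WT H3K27me3) and 57.9% (chromosome 4, WT H3K27me3), and shares of H3K4me3 islands with both marks 4.76% (chromosome 14, WT) and 35.2% (chromosome 4, KO). Fold ratios were then 1.18 (chromosome 4, H3K4me3), 0.847 and 0.693 (chromosomes 14 and 4, H3K27me3), and H3K27me3 control ratios 1.6 and 1.81. With 50% overlap, 10.9% of WT H3K27me3 islands of chromosome 14 were unshared and 24.4% of its KO H3K4me3 islands carried both marks. Relative to other autosomal shared regions the control ratios were 0.929 (chromosome 14) and 1.65 (chromosome 4) for H3K4me3, and 1.34, 1.46 and 2.06 (chromosomes 14, 4 and 13) for H3K27me3. Identical intervals gave 1.62 (chromosome 4, H3K4me3), and 1.43 and 1.39 (chromosomes 14 and 4, H3K27me3). No paired analysis was possible because each genotype has 1 library per mark; the replicate numbers belong to nuclease libraries that were not used. Depth limits what can be said of places without an island, for which no reads are listed.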

Other observations

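Along chromosome 14 the number of H3K27me3 islands per Mb varied less in KO than in WT up to the last window with islands, where both were low. By successive windows of 1 Mb from 3000001, WT had 22, 60, 43, 51, 61 and 28 H3K27me3 islands, and KO had 73, 78, 74, 71, 71 and 38. The covered length was 84.2 to 247.2 kb per window in WT and 327.2 to 606.8 kb in KO. The first window differed most in proportion, with 84.2 kb in WT and 384.6 kb in KO. No island of any list started before 3000001.

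On chromosome 4 the windows from 145000001 and 146000001 differed from the third. H3K27me3 covered 544 and 554.4 kb of the first 2 windows in WT and 334.6 and 390.2 kb in KO, but 110.6 and 56.6 kb of the third. The last KO H3K27me3 island ended at 147187000, and the last WT one, which lies far from the others, at 147913200. H3K4me3 islands numbered 94, 94 and 48 in WT and 60, 59 and 42 in KO.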
